A study of Rattus norvegicus with 4 samples.

Results

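The B cell receptor and B lineage genes were followed in cells that had been selected as mast cells with AA4, an antibody against gangliosides of the rat mast cell surface. The members were fixed as 9 gene symbols (Cd79a, Cd79b, Cd22, Cd24, Cxcr5, Blnk, Pax5, Spib and Blk), and every probe set whose platform annotation gave exactly 1 of these symbols was taken. This gave 8 probe sets of 6 genes, out of 20826 probe sets of 14217 genes with a single symbol. Cd79a, Pax5 and Spib were not matched to a probe set and are not analysed here. The rats were BioBreeding females aged 65 days, and the cells were taken from pancreatic lymph node. One group was DRlyp/lyp, homozygous for the lyp mutation of Gimap5 and labelled diabetic prone (DP), and the other was DR+/+, with the normal gene and labelled diabetic resistant (DR). Each group is 1 pool of RNA from 8 animals. From about 50 ng of it, 2 separate 2-cycle amplifications were made per pool, for 4 Affymetrix rat arrays in all. The arrays of a group therefore share their animals, and the p-values measure the spread between amplifications of a pool. They compare 2 pools, not the strains.

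The B cell receptor is a membrane immunoglobulin that signals through the paired chains Cd79a and Cd79b. When antigen binds, Src-family kinases such as Lyn and Blk phosphorylate these chains, the kinase Syk docks on them, and the adaptor Blnk brings Btk and the phospholipase Plcg2 together. Cd22 restrains the signal by recruiting the phosphatase Ptpn6, and Cxcr5 guides B cells into the follicles of a lymph node, where they form its cortex.

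Of the mast cell markers Kit, Cpa3, Cma1 and Ms4a2, all but Kit had a probe set above the filter on all 4 arrays. Kit, the stem cell factor receptor of mast cells, stayed below the filter used here (a signal of 28.3, the median of all values) on all 4 arrays (at most 11.3), whereas the mast cell carboxypeptidase Cpa3 read between 425.8 and 527.8 and the chymase Cma1 between 267.8 and 305.7. Of 2 probe sets of Ms4a2, the beta chain of the IgE receptor, the brighter read between 61.5 and 83.2 and the other at most 1.8. Other mast cell genes differed between the pools. Of 16 tested, 8 were higher in DRlyp/lyp, 4 lower and 4 not called, against 20.9% higher and 21.1% lower among all genes tested. Of the 8, Il1rl1 and Mcpt4 were under the filter on both DR+/+ arrays and could only come out higher. Of the defining B cell markers, Ms4a1 (CD20), the complement receptor Cr2 and Cd79b were above the filter on all 4 arrays. Both pools thus held B cell transcripts, and the share of B cells in either pool is not known. In such bulk RNA, fewer B cells and less RNA per B cell cannot be told apart.

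The upstream sequences of 3 members with values below are shown, the only members with both a promoter record and a probe set. They are the member with the largest fall whose groups were both above the filter (Cd24) and the 2 members that did not pass the test (Cd22 and Blnk). RefSeq's promoter table (GRCr8) held 5 of the 9 members, and 3 of these also had a probe set. Each line gives the 250 bases before the gene start, 5′ to 3′ on the gene's strand, at chr1:95259731-95259980 (minus strand) for Cd22, chr1:249770534-249770783 (minus strand) for Blnk and chr20:48656227-48656476 (plus strand) for Cd24. Capitals mark matches, on either strand, to the octamer ATGCAAAT bound by Oct factors, to AGGAAG, a form of the Ets site bound by PU.1 and Spi-B, and to the E box CANNTG.
Cd22: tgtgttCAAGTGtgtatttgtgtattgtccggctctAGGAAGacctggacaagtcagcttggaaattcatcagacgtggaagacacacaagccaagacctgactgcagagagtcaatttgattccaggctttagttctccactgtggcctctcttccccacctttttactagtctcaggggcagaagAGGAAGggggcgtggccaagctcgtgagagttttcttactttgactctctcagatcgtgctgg
Blnk: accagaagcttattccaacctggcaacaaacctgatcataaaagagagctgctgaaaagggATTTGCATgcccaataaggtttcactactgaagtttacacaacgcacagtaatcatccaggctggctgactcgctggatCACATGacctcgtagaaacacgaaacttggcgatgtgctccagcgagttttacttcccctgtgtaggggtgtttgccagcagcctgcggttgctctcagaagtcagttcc
Cd24: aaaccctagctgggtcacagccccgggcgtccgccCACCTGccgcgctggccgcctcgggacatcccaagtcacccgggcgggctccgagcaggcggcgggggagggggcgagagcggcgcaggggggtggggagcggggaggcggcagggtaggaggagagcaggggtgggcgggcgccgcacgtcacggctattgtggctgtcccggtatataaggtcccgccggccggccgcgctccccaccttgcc

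The windows differed in composition. That of Cd24 was 75.6% G and C with 28 CpG dinucleotides, against 49.2% and 5 for Cd22 and 48.8% and 7 for Blnk. The median over 33469 promoter windows of the same length was 51.2% and 5. The octamer matched once in the Blnk window, 189 bases before the start, and in 1.56% of all windows. AGGAAG matched at 214 and 63 bases before the start of Cd22 and in 29.5% of windows, and the E box matched once in each of the 3 windows and in 65.5% of all. The core of the Ebf1 site, CCCNNGGG, was in 10.8% of windows and in none of these 3. The RefSeq gene records of Cd24 and Cd22 begin 928 and 10700 bases further upstream, so these windows lie inside the records. The letters are a description, and no binding was measured.

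The members split into those that fell in the DRlyp/lyp pool and those that did not pass the test. Of the 8 probe sets, all of which were tested, 6 were lower in DRlyp/lyp at an adjusted p under 0.05 (limma, Benjamini-Hochberg over 16068 probe sets), 0 were higher and 2 were not called. They belonged to 4 genes that fell (Cd24, Cd79b, Cxcr5 and Blk) and 2 that were not called (Cd22 and Blnk). Among all tested probe sets 19.9% were called lower and 19.3% higher. One of the 6 lower sets, Cxcr5 1369911_at, was under the filter on both DRlyp/lyp arrays, so it entered the test only through DR+/+ and could only come out lower. Of the 7 sets above the filter on all 4 arrays, 5 were lower. The median log2 difference of these 7, DRlyp/lyp minus DR+/+, was -0.59, against -0.001 over all tested probe sets. The shares over all tested sets include dim sets that were above the filter in 1 pool only. With the filter at the 75th percentile, 5 of 7 tested member sets and 28.9% of all tested sets were called lower. Of these 7 sets 2, those of Cd79b and Cd24, were called lower with a fitted size of at least 2-fold, as were 5.93% of all tested sets. In 6 of the 7 both DRlyp/lyp arrays lay below both DR+/+ arrays, which held for 35.4% of tested sets.

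**Figure D1:**
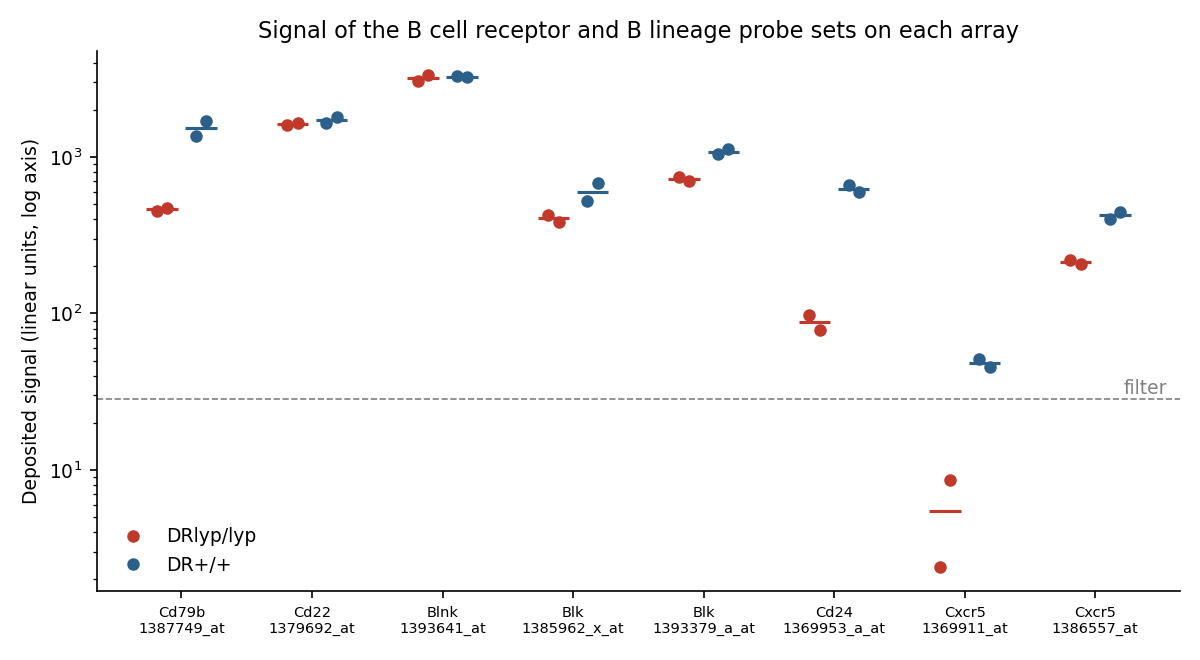
Deposited signal of the 8 probe sets on each array, in linear units on a log axis. Points are arrays, short bars are the means of the 2 arrays of a pool, red is DRlyp/lyp and blue is DR+/+, and the dashed line is the filter at 28.3. The pools are far apart for Cd79b and Cd24, nearly level for Cd22 and Blnk, and the first Cxcr5 set lies under the filter in DRlyp/lyp.

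Cd79b, the signalling chain that pairs with Cd79a in the receptor, read 454.1 and 471.7 on the DRlyp/lyp arrays and 1354.8 and 1699.7 on the DR+/+ arrays. Its signal in DR+/+ was 3.28-fold higher, and the highest DRlyp/lyp array was far below the lowest DR+/+ array. The log2 difference was -1.71 (SE 0.11, 95% interval -1.95 to -1.47, adjusted p = 5.31e-07). Of tested probe sets 1.1% differed by as much in this direction. The difference lay between -1.88 and -1.55 over 13 alternative settings, with the adjusted p at most 0.0448.

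Cd22, the inhibitory lectin that opposes the receptor, behaved otherwise. It read 1605.7 and 1657.7 on the DRlyp/lyp arrays against 1660.7 and 1791.5 on the DR+/+ arrays. The pools did not overlap, but the nearest arrays were almost level. The log2 difference of -0.08 (SE 0.07, adjusted p = 0.405) had a 95% interval of -0.24 to 0.08, which leaves out the size of the Cd79b difference.

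Blnk, the adaptor downstream of Syk, was closer still between the pools. It read 3064.8 and 3332.7 in DRlyp/lyp and 3299.1 and 3251.2 in DR+/+, so the DR+/+ arrays lay between the DRlyp/lyp arrays. The log2 difference was -0.04 (SE 0.06, 95% interval -0.17 to 0.10, adjusted p = 0.677). Without DRlyp/lyp replicate 1 it was 0.03.

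Blk, the Src-family kinase of B cells, was measured by 2 probe sets with nearly equal differences. The set 1393379_a_at, whose suffix marks probes shared by transcripts of 1 gene, read 742 and 700.9 in DRlyp/lyp against 1045.7 and 1120.5 in DR+/+. The set 1385962_x_at, whose suffix marks probes that can also match other sequences, read 424.7 and 385.4 against 520.4 and 678.9. The pools did not overlap in either set. The log2 differences were -0.59 (SE 0.09, adjusted p = 3.10e-04) and -0.56 (SE 0.13, adjusted p = 0.00644), or 1.5- and 1.47-fold. Both calls were lost when no filter was set on dim probe sets (adjusted p = 0.0521 and 0.222, the highest of their alternatives, whose lowest were 4.36e-09 and 1.97e-05). The call of 1385962_x_at was also lost without DRlyp/lyp replicate 2 (adjusted p = 0.0533) and without the intensity trend (adjusted p = 0.0877).

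Cd24, a lipid-anchored surface glycoprotein of developing B cells that granulocytes, erythroid precursors and epithelia also carry, fell most among the sets above the filter in both pools. It read 97.2 and 78.8 in DRlyp/lyp against 659.9 and 597.2 in DR+/+. Both DRlyp/lyp arrays lay far below the DR+/+ arrays, a 7.17-fold difference. The log2 difference of -2.84 (SE 0.16, 95% interval -3.18 to -2.50, adjusted p = 1.53e-07) ranked 15 from the lowest of 16068 probe sets. It lay between -2.99 and -2.30 over 13 alternatives and was called in each.

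Cxcr5, the receptor for the follicular chemokine Cxcl13, was measured by 2 probe sets that both fell. The set 1386557_at read 220.6 and 206.7 in DRlyp/lyp against 404.3 and 444.7 in DR+/+, and the pools were well separated. Its log2 difference was -0.99 (SE 0.13, 95% interval -1.28 to -0.70, adjusted p = 1.27e-04), or 1.99-fold. Averaged with the dimmer set below, the gene differed by -1.83 and was called, and over the 12 other alternatives the set itself lay between -1.10 and -0.85. The set 1369911_at read 2.4 and 8.6 against 51.4 and 45.5. Against the filter of 28.3, which both DRlyp/lyp values were under, it was at least 1.71-fold lower, in the only direction open to it. Its call (adjusted p = 9.80e-04) was lost without a filter (adjusted p = 0.0515, the highest of 9 alternatives, the lowest being 1.38e-05). Cxcl13 itself was at or under the filter on all 4 arrays, between 16.3 and 28.3.

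**Figure D2:**
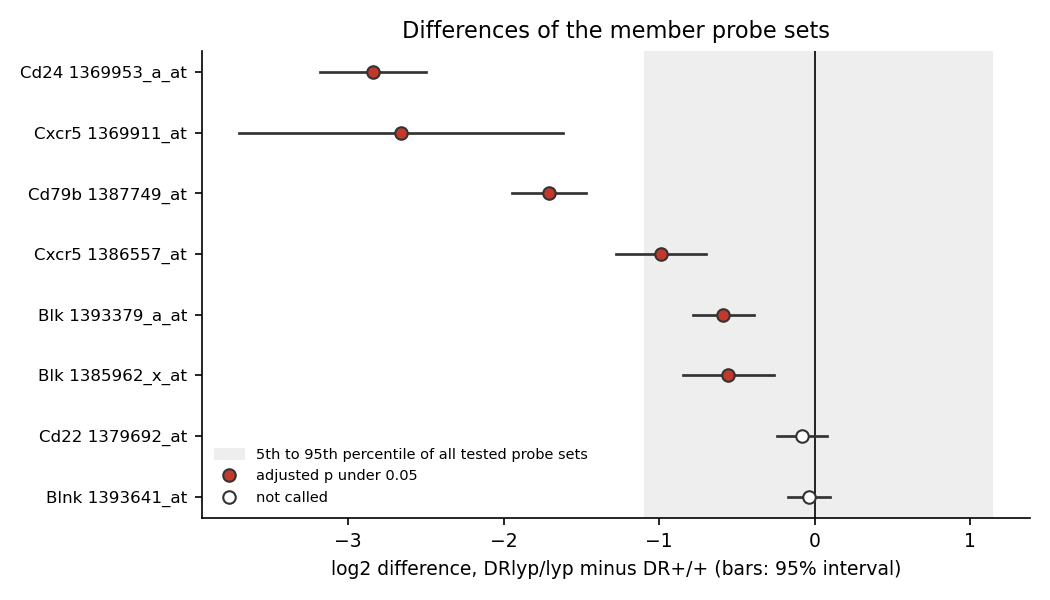
Log2 difference, DRlyp/lyp minus DR+/+, of each member probe set with its 95% interval from limma. Filled points passed an adjusted p of 0.05, open points did not, and the grey band spans the 5th to the 95th percentile of all tested probe sets (-1.09 to 1.14). Cd24 and Cd79b lie outside the band. The fitted point of Cxcr5 1369911_at rests on DRlyp/lyp values under the filter and its size is known only as at least 1.71-fold. The intervals of Cd22 and Blnk include 0.

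The brightest probe sets of the members did not move by a common factor. Set against the change of Cd79b on the same arrays, the change of Cd24 was lower by a log2 difference of -1.13. Those of Cxcr5 (0.72), Blk (1.13), Cd22 (1.63) and Blnk (1.68) were higher. Each gene was taken by its brightest tested set. Only 1.1% of tested probe sets fell by as much as Cd79b, so most genes would come out higher on this measure. These relative changes are a description with no test of their own. Probe sets of the same gene also lay far apart, as with Cr2 (-0.13 to -1.39) and Lyn (0.41 and -1.93). Cd79b, Cd22, Cd24 and Blnk have 1 set each. For these members a difference between genes and one between probe sets cannot be told apart.

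For each member, the genes with the most similar pattern were those with the smallest Euclidean distance between log2 values centred over the 4 arrays, among 9348 other genes. For Cd79b they were Tceal8 (distance 0.102), Adgrv1 (0.109) and the desaturase Scd (0.112). The nearest other member was Cxcr5 (0.743), with 335 genes closer. For Cd24 they were Eva1a (0.409), the macrophage metalloelastase Mmp12 (0.512) and Psap, the saposin precursor (0.535). For Cxcr5 they were Stx12, Tmem199 and Mccc2, and for Blk they were Smchd1, Etfdh and Ccdc69. For Cd22 they were Luc7l3, Gsto1 and Ncbp2, and for Blnk they were Kpna3, Trpc4ap and Mrpl21. No member was among the 3 closest genes of another member. With 4 arrays in 2 pools the distance mostly reflects the size of the difference.

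Other genes, on lists drawn up for the B cell program, leaned the same way as the members. Of 83 genes on 5 lists, 51 were matched and 49 tested, and 29 were lower, 3 higher and 17 not called. The share of all genes tested was 21.1% called lower and 20.9% called higher. The median log2 difference was -0.38 over these 49 genes and 0.00 over all genes. No list test was made. The lists also hold genes that other leukocytes use, such as Syk, Grb2, Ptpn6 and Cxcr4, all called lower. Of the defining B cell markers, the brightest sets of Ms4a1 and Cr2 were among the 17 not called, while the member Cd79b was called lower.

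Most genes that carry the receptor signal were lower. Of 19 tested, 14 were lower and 1 was higher, with a median of -0.41. Btk, the kinase that Blnk helps to activate, read 464.2 and 484.5 in DRlyp/lyp against 994.4 and 997.5 in DR+/+ (log2 difference -1.07, adjusted p = 5.73e-06). Its substrate Plcg2 read 276 and 270.2 against 516.8 and 548.9 (-0.96, adjusted p = 6.66e-05). The adaptor Grb2 fell by 0.89 and Ptpn6, the phosphatase recruited by Cd22, by 0.73 on the log2 scale. Syk fell by 0.38, from 1401.4 and 1369.8 in DR+/+ to 1054.6 and 1079 in DRlyp/lyp. The 1 higher gene was Sos1, an exchange factor of Ras, at 731.3 and 655 against 506.7 and 433, but averaging its 2 probe sets ended this call (adjusted p = 0.237), as did fitting without the intensity trend (adjusted p = 0.0572) or a filter (adjusted p = 0.13). T cells, macrophages or mast cells also use Btk, Syk, Plcg2, Grb2 and Ptpn6, so these genes do not mark B cells.

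Transcription factors of the B lineage fell as well. Of 10 tested, 8 were lower, 0 higher and 2 not called, with a median of -0.63. Medians below 0 were not particular to the B lineage. Macrophage and dendritic cell genes had a median of -0.52 (10 of 20 lower, 6 higher). For plasmacytoid dendritic cell genes it was -0.50 (3 of 5 lower, 1 higher), and for T cell genes 2.00. Ebf1, which commits progenitors to the lineage, read 275.8 and 297.6 against 453.1 and 572.3 (-0.83, adjusted p = 5.60e-04). Its set 1368949_at was also lower (-0.74, adjusted p = 0.00529), and its set 1382212_at was not called (-0.45, adjusted p = 0.0568). The octamer coactivator Pou2af1 read 2474.7 and 2575.5 against 3631.8 and 3727.3 (-0.54, adjusted p = 2.37e-05). Irf8 fell by 0.80, Bcl11a by 0.79 and Foxo1 by 1.03 on the log2 scale. The Foxo1 call did not survive leaving out DRlyp/lyp replicate 2 (adjusted p = 0.0549), nor leaving out DR+/+ replicate 1 (adjusted p = 0.0506).

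Surface proteins and coreceptors were more mixed. Of 13 tested, 6 were lower, 2 higher and 5 not called, with a median of -0.27. The tetraspanin Cd37 read 990.6 and 1064.2 against 2055.4 and 2142.1 (-1.03, adjusted p = 1.36e-06), and the costimulatory receptor Cd40 380.6 and 479.3 against 661.4 and 628.4 (-0.59, adjusted p = 0.00265). Ms4a1, the target of rituximab, read 3723.3 and 3909.7 against 3982.8 and 4401.1 (-0.13, adjusted p = 0.101), and was called lower without DR+/+ replicate 1 (-0.21, adjusted p = 0.0363). The IgM Fc receptor Fcmr differed by 0.02 (adjusted p = 0.821). The inhibitory Fc receptor Fcgr2b (0.24) and the activation marker Cd83 (0.18) were higher, calls that were lost with each array centred on its median (adjusted p = 0.34 and 0.542). The Fcgr2b call was also lost without DRlyp/lyp replicate 2 (adjusted p = 0.231) and again without DR+/+ replicate 1 (adjusted p = 0.0621). That of Cd83 was lost without any 1 of DRlyp/lyp replicate 1, DRlyp/lyp replicate 2 and DR+/+ replicate 2 (adjusted p = 0.0739, 0.0622 and 0.0664). Of the lower calls of this list, that of Cd180, an activating receptor of B cells, was lost without DRlyp/lyp replicate 1 (adjusted p = 0.0668).

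Genes of germinal centres and follicles gave 1 lower call among 6 tested, with a median of -0.04. It was the chemokine receptor Cxcr4, also used by many other leukocytes, at 2024.8 and 2003.8 against 3302.5 and 3295 (-0.71, adjusted p = 3.76e-06). Of the immunoglobulin and precursor B cell list only Vpreb3 was matched, and it did not pass the test (-0.17, adjusted p = 0.575).

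**Figure D3:**
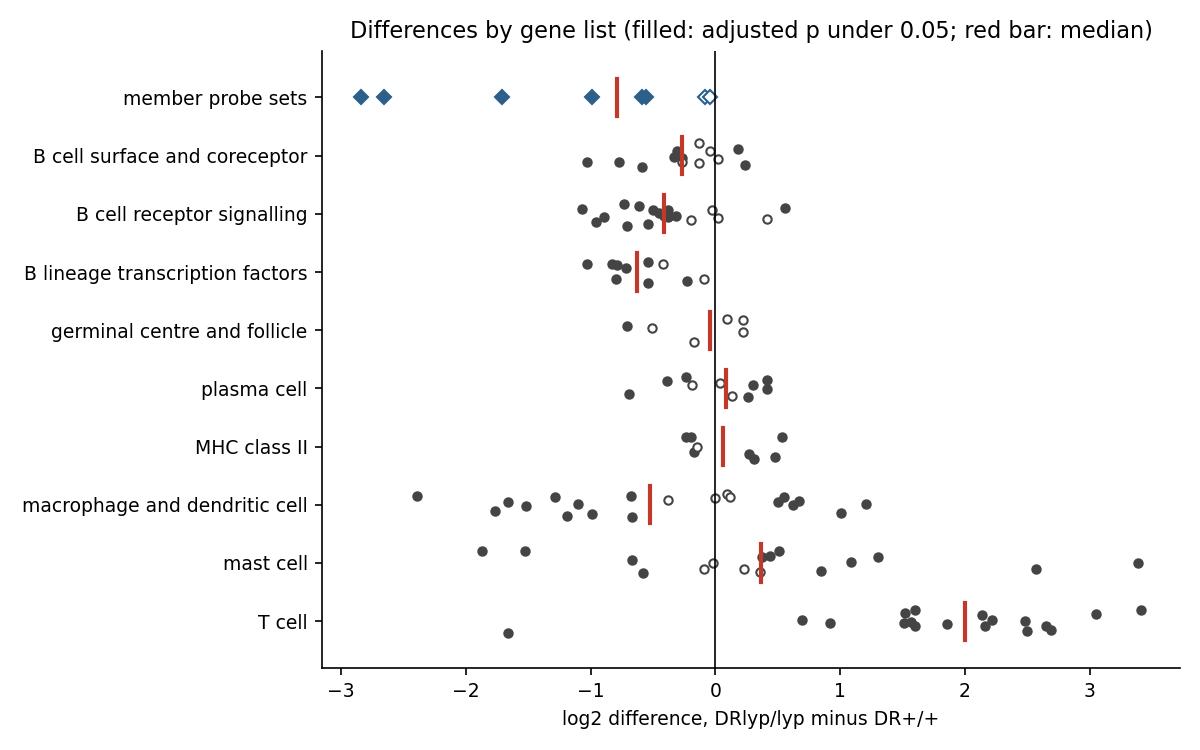
Log2 difference of each tested gene (brightest probe set), by list, with the 8 member probe sets as diamonds at the top. Filled points passed an adjusted p of 0.05, and red bars are medians. The 3 lists of receptor signalling, transcription factors and surface genes have medians of -0.41, -0.63 and -0.27, and the T cell list has a median of 2.00.

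The value of a B cell gene depended on the probe set. Cr2, the coreceptor that binds complement fragments, has 5 probe sets. The brightest, 1379446_at, read 3225.6 and 3586.7 against 3667.1 and 3791 (-0.13, adjusted p = 0.113; without DRlyp/lyp replicate 2 -0.21, adjusted p = 0.048), whereas the other 4 were called lower, by between 0.51 and 1.39 on the log2 scale. Averaged over its sets, Cr2 differed by -0.64 (adjusted p = 5.38e-05). Lyn differed by 0.41 in its brighter set (adjusted p = 0.11), which was called higher without DR+/+ replicate 1 (0.72, adjusted p = 0.00795), and fell by 1.93 in the other. Of 19 genes on these lists with at least 2 tested sets, 10 had sets that differed in their call. Cd79b, Cd22, Cd24 and Blnk have 1 probe set each, so no such comparison can be made for them.

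**Figure D4:**
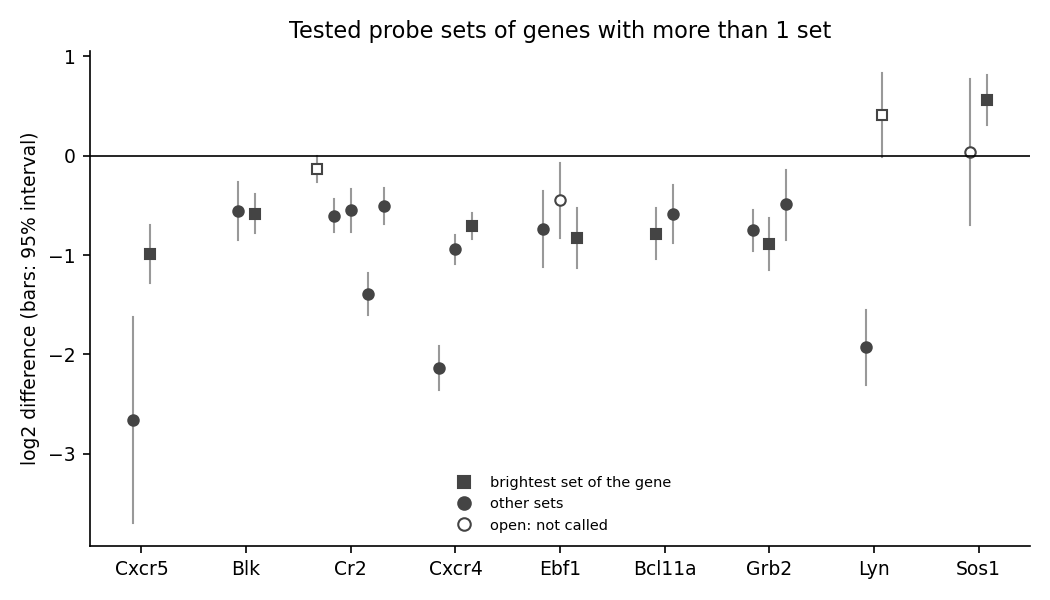
Log2 difference and 95% interval of every tested probe set for the 2 members and the 7 named B lineage genes with more than 1 tested set. Squares are the brightest set of a gene, circles the others, and open symbols were not called. The 2 Blk sets nearly coincide, while sets of Cr2 and Cxcr4 differ in size and those of Lyn lie on opposite sides of 0. The lower Cxcr5 point rests on values under the filter in DRlyp/lyp.

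Several measures of the whole arrays moved with the pools. The log2 difference between the 3′ and 5′ control probe sets, which grows as amplified RNA gets shorter, was larger in DRlyp/lyp by 1.44 for beta-actin and 0.81 for GAPDH. Its part in the member differences was not tested. T cell genes were higher, 17 of 18 tested and 1 lower, with a summed signal of 13600.9 to 13720 on the DRlyp/lyp arrays and 3187.1 to 3335.5 on the DR+/+ arrays (Cd3e read 781.2 and 882.2 against 75.5 and 80.7). The lower gene, Cd4, was under the filter on both DRlyp/lyp arrays (20.7 and 10.6), so it could only come out lower. Of 20 exocrine pancreas genes 20 were higher, with a summed signal of 12855.4 to 13654.8 against 348 to 358. Of these, 13 were under the filter on both DR+/+ arrays, so they entered the test through DRlyp/lyp alone and could only come out higher. Macrophage and dendritic cell genes were lower in 10 and higher in 6 of 20, with a summed signal of 21687.9 to 21947.9 against 24639.6 to 25484.9. The part of these other cells in the B cell values was not tested. Plasma cell genes, the end stage of the lineage, were higher in 4 and lower in 3 of 10 tested, and MHC class II genes, which B cells share with other antigen-presenting cells, were higher in 4 and lower in 3 of 8. The immunoglobulin joining chain Jchain read 7300.9 and 7638.1 against 5541.4 and 5732.5 (0.41, adjusted p = 4.85e-05), a call lost when its probe sets were averaged (0.12, adjusted p = 0.109). Mzb1, a chaperone of antibody secretion, differed by 0.30 (adjusted p = 4.15e-04), but was not called after median centring (0.19, adjusted p = 0.0692), and neither was Creld2 (0.26, then 0.15). Edem1 was higher by 0.41 and at -0.01 with its sets averaged. Among the 3 lower plasma cell genes the BAFF-family receptor Tnfrsf17 read 331.7 and 407.3 against 597.2 and 592.4 (-0.69, adjusted p = 9.21e-04).

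No member changed its call under another scaling. Centring each array on its median shifted the median of all tested sets by -0.11 on the log2 scale, and 36.1% of calls were then higher in DRlyp/lyp against 49.3% with the deposited scaling. Cd22 was then at -0.19 (adjusted p = 0.15) and Blnk at -0.15 (adjusted p = 0.217), neither called, while Ms4a1 (-0.25, adjusted p = 0.0434) and the brightest Cr2 set (-0.24, adjusted p = 0.0488), which are no members, passed the threshold. Quantile normalization (median of all tested sets -0.005) also called both lower, Ms4a1 at -0.24 (adjusted p = 0.0108) and Cr2 at -0.19 (adjusted p = 0.0191).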

How the data were processed

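The authors deposited an intensity on a linear scale for every probe set. Which program summarised the probes is not given in the sources used here. Their 2% trimmed mean was 150.1 on each array, so they were kept as deposited. Of 31099 probe sets, 57 controls were left out. Values were floored at 6.8 (pooled 25th percentile) and log2 transformed, and sets above 28.3 (pooled median) on at least 2 arrays were tested (16068). Differences, DRlyp/lyp minus DR+/+, came from limma 3.58.1 under R 4.3.3 as a two-sided test (intensity trend, 2 residual degrees of freedom, Benjamini-Hochberg over all sets, threshold 0.05). A gene was represented by its brightest tested set (9349 genes), and every member set was also given. Symbols came from the platform annotation; 20758 Entrez numbers matched RefSeq, which changed 0 symbols. Members and lists were chosen with earlier results of these data known. From the lists were named up to 4 called genes each way with pools that did not overlap, or the brightest gene where none was called, and Ms4a1, Cr2, Btk, Syk, Lyn, Plcg2, Ebf1, Pou2af1, Cd3e and Cd3g; another gene of that rule is not reported here. Fcmr, Cxcl13, Kit, Cpa3, Cma1 and Ms4a2 were named after their values were seen. Of the lists checked, plasmacytoid dendritic cell genes were lower in 3 and higher in 1 of 5, mast cell genes 4 and 8 of 16, neutrophil genes 1 and 3 of 7 and erythroid genes 1 and 2 of 4. The fit was tested on simulated arrays with known changes. The noise of that simulation was revised after it had missed the preset recovery, first with shuffled and then with each set's own residual spread; the version kept draws on limma's moderated spread, which is smoother than the residual spread and lets more changes be recovered, so passing it says little about sensitivity to small changes here. Replicate numbers did not pair the arrays (correlation of deviations 0.044). Python 3.11.15 and matplotlib 3.10.9 made the figures. The motifs searched, the showing of promoters and the comparison of bright with dimmer probe sets were settled after the data had been seen. The number of arrays limits the precision.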

Additional observations from a re-analysis of the deposited data

How the results depend on the processing

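The member sets called lower numbered 6 as reported and 5 or 6 in the alternatives other than no filter, including each array left out. Without a filter 31042 sets were tested and 1671 called, against 6302, with 3 member sets (Cd79b, Cd24 and Cxcr5 1386557_at) and 11 genes of the B lineage lists called lower against 29. Among the list genes that lost their lower call there were Cd180, Cd40, Ltb, Grb2, Foxo1, Ebf1, Irf8, Bcl11a, Tnfrsf17 and Cd4. Without the intensity trend 4057 sets were called, and 15 genes of the B lineage lists were lower, with Cd40, Ltb and Syk among the lost calls. Leaving out each array gave 3857 to 5956 calls, the lowest without DRlyp/lyp replicate 1, with 4167 without DRlyp/lyp replicate 2. The cause was not tested. The replicate block gave 7044 calls and the same count of 6 member sets; with it Ms4a1, Cr2 and Lyn also passed the threshold. The Cxcr5 set 1369911_at was not tested with the filter at the 75th percentile or without either DR+/+ array. Among genes of the other lists, Cd74 reversed with quantile normalization (-0.06), and Ciita (-0.11), RT1-Ba (-0.22), Edem1 (-0.01) and Tcf4 (-0.16) with the mean of their probe sets. Signals under 28.3 are not shown to be above background.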

Other observations

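Within genes measured by several probe sets, the log2 difference of the brightest set was often less negative, or more positive, than that of the others. On the B lineage lists this held for 11 of 19 genes (57.9%), with a median excess of 0.53 on the log2 scale over the mean of the other sets. Over all genes with at least 2 tested sets it held for 1354 of 2106 (64.3%), with a median of 0.24. An example, chosen after its values were seen, was the leukocyte phosphatase Ptprc (CD45), which fell by 0.45 in its brightest set and by 2.22 in the other. These counts include dimmer sets that passed the filter in 1 pool alone and so could differ in 1 direction only. Prkcb, the protein kinase C that links the receptor to NF-kB, was the 1 gene of these lists with sets called in both directions, at -2.22, -0.50 and 1.95.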
